A study of Rattus norvegicus with 18 samples.

Results

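The comparison is between mesenchymal stem cells (MSCs) of miR-337-/- rats (KO) and of wild-type rats (WT), both given fetal bovine serum (FBS). It takes 6 of the 18 libraries of the series, 3 KO FBS and 3 WT FBS, chosen by their labels. Genes were tested when their FPKM (fragment counts corrected for gene length and depth) was 1 or more in 3 or more of the 6 libraries, which held for 12643 of the 32623 listed genes.

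The study asked how mechanical load and its loss act on bone marrow MSCs and what part miR-337 plays in it. All cells came from the bone marrow of Sprague-Dawley (SD) rats aged 2 months, were cultured to the third passage and were serum-starved for 8 h. The KO FBS and WT FBS groups then received serum for 24 h, whereas the other 12 libraries were of KO and WT cells kept in serum starvation (SSt) or put under 10% cyclic mechanical stretch (CMS). The knockout was made in the animal and not in culture. No source names the rat or dish behind each library, so p-values measure the spread between these libraries, which may be technical. Genotype, culture and the deposited table (1 for each genotype) coincide and cannot be told apart.

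A microRNA is a short RNA that guides the silencing complex to messenger RNAs with a match to its seed, so that the targets are degraded or less translated. The Mir337 hairpin lies in the large imprinted microRNA cluster between Dlk1 and Dio3, and the study followed its 3p arm as a brake on the insulin receptor substrate Irs1 and the PI3K, Akt and mTOR pathway, which carries growth factor signals into cell growth and division. MSCs are stromal cells of the marrow that give rise to bone, cartilage and fat and that feed blood-forming cells through factors such as Kitlg and Cxcl12, and serum is the usual stimulus that brings starved cultures back into the cell cycle. The 2 mature arms of the targeted microRNA are shown with the seed (bases 2 to 8) in capitals, from RefSeq on the GRCr8 build, with both on the plus strand of chromosome 6.
rno-miR-337-3p: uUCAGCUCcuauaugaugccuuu
rno-miR-337-5p: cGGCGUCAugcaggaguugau
The 3p arm is at chr6:134321201-134321223 and the 5p arm at chr6:134321170-134321190. The hairpin had 0 counts in each of the 18 libraries, WT included, so the libraries hold no check of the knockout. The 5 tested genes nearest to the hairpin on either side in the RefSeq gene order lay 617 to 1324 kb away. They did not pass the test, with log2 fold changes of -0.49 for Evl, an actin regulator, to 0.48 for Mok, a kinase. Dlk1 and Dio3 themselves were below the FPKM limit and were not tested. Dlk1 had 25, 14 and 22 counts in KO FBS libraries, against 0, 8 and 9 in WT FBS libraries, without overlap. Dio3 had 30, 72 and 83 counts in KO FBS libraries, against 39, 39 and 15 in WT FBS libraries, with an overlap. On chromosome 6 as a whole 15 of 547 tested genes (2.74%) were called.

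The 6 libraries held between 56083000 and 66671929 counts. KO FBS replicate 1 stood apart: on the first principal component, with 45.7% of the variance, it was at -54, against -17.4 and -11.6 for the other KO libraries and 22.2 to 32.4 for the WT libraries. Its mean correlation over genes was 0.965 with its own group and 0.966 with the KO CMS libraries. The counts of the comparison are therefore given with and without it. Of the markers of the labelled cell type, Thy1, Nt5e, Eng, Cd44, Pdgfra and Pdgfrb were all tested, whereas Lepr, the receptor that names the study's MSCs, had 0 to 12 counts in the KO FBS and 0 to 8 in the WT FBS libraries. Macrophage genes were abundant in both groups. Of 25 listed markers of other blood cells 1 reached the FPKM limit, the neutrophil gene Camp (log2 fold change 0.95, adjusted p = 0.0713). S100a9, Mpo, Cd3e, Hbb and the fat cell gene Adipoq had 0 counts in all 6 libraries, whereas the erythroid Klf1 had 25 to 56 counts in KO and 17 to 27 in WT, and the fat cell gene Plin1 11 to 13 in KO and 11 to 12 in WT. The methods name male rats, yet the Y-linked Eif2s3y, Kdm5d and Usp9y had 0 counts in all 6 libraries and Ddx3y 0 to 12 in KO and 2 to 18 in WT.

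With edgeR's quasi-likelihood test and Benjamini-Hochberg adjustment over all tested genes, 1551 genes (12.3%) passed an adjusted p of 0.05, 768 of them higher in KO (6.07%) and 783 lower (6.19%). A gene is named called when it also differed by at least 2-fold. This held for 361 genes (2.86%), 212 higher in KO (1.68%) and 149 lower (1.18%). The list counts below stand against these shares of all tested genes. The FPKM values of the groups did not overlap in 211 of the 212 and in all 149, against 38.0% of all tested genes (15.5% with the higher values in KO and 22.5% with the lower), as the limits of a call nearly require. Without KO FBS replicate 1, 2604 genes (20.6%) passed the adjusted p, 1255 higher (9.93%) and 1349 lower (10.7%), and 390 (3.08%) were called, 223 higher (1.76%) and 167 lower (1.32%), with 187 of the 212 and 127 of the 149 among them. Leaving out KO FBS replicate 2 gave 843 genes past the adjusted p, and leaving out WT FBS replicate 1, 2 or 3 gave 609, 499 or 481. List counts with a library left out stand against the total of that fit, which moved as well. The calls that were made with all 6 libraries and again with any 1 of them left out were 111 higher and 70 lower. Among the 70 were Tmem45al, LOC108348055 and Fam210a, whose counts switched between libraries of the same group in SSt or CMS. In bulk libraries fewer cells of a type and less RNA per cell cannot be told apart.

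**Figure D1:**
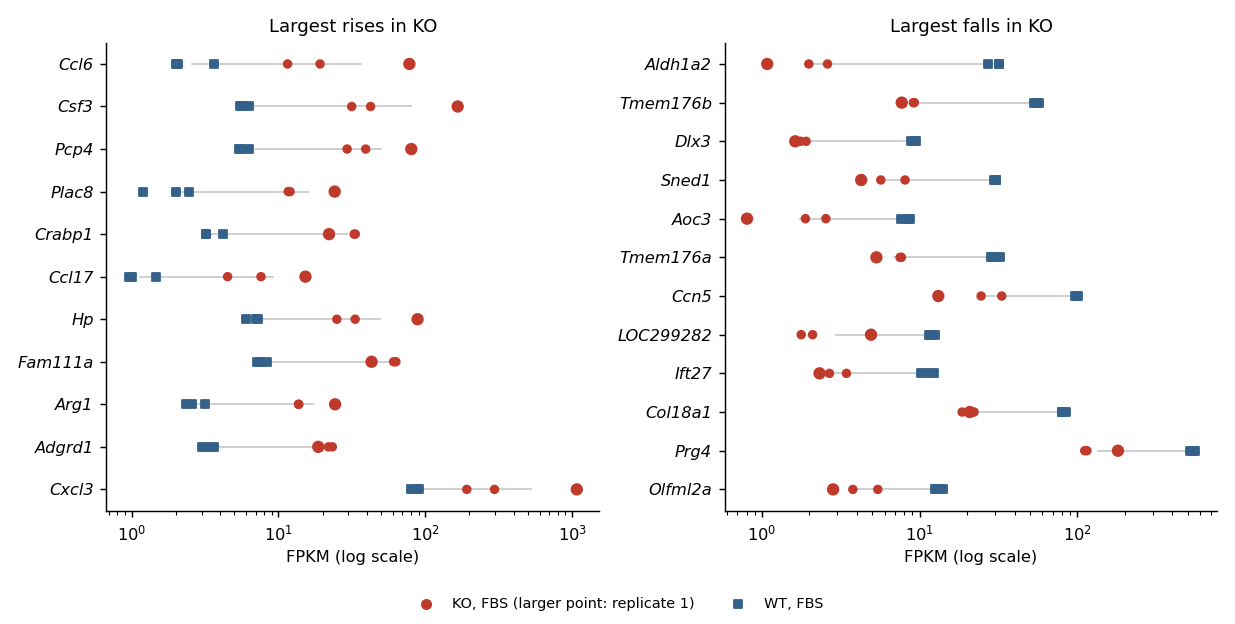
FPKM (log axis) of 11 of the 12 genes with the largest rise and the 12 with the largest fall among genes called with and without KO FBS replicate 1, with a mean of at least 5 FPKM. Red circles are the 3 KO FBS libraries (larger circle, replicate 1), blue squares the 3 WT FBS libraries, and grey lines join the group means. No pair of groups overlaps, which the choice of these genes required. Replicate 1 is far above the other KO libraries for Ccl6, Csf3 and Cxcl3 but beside them for Crabp1, Fam111a and Adgrd1.

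Retinoid genes were among the largest falls and the largest rises of the comparison. Aldh1a2, the enzyme that makes retinoic acid from retinaldehyde, had 1.08, 1.98 and 2.61 FPKM in KO libraries, against 31.7, 31.8 and 27.1 FPKM in WT libraries (log2 fold change -3.97 ± 0.29, adjusted p = 0.000889). Crabp1, which binds retinoic acid in the cytoplasm, had 22.1, 33.4 and 32.8 FPKM in KO libraries, against 3.21, 3.19 and 4.18 FPKM in WT libraries (log2 fold change 3.08 ± 0.19, adjusted p = 0.000541). The groups were far apart for both genes, and both calls were made with any library left out (log2 fold change -4.26 to -3.71 for Aldh1a2 and 3.00 to 3.24 for Crabp1). Dhrs3, which reduces retinaldehyde back to retinol, fell by less than 2-fold (log2 fold change -0.70 ± 0.13, adjusted p = 0.0189). Of the 14 tested genes of the list of retinoic acid and glucocorticoid genes 2 rose and 2 fell at the adjusted p, and the median log2 fold change was 0.18, against 0.00 over all tested genes. Without KO FBS replicate 1, 4 rose and 3 fell, and with any other library left out 1 to 2 rose and 1 to 2 fell. The receptors Rara and Rarg did not pass (log2 fold change 0.62, adjusted p = 0.0597 and 0.12, adjusted p = 0.139), though Rara did without KO FBS replicate 1 (0.41, adjusted p = 0.0143).

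Genes of limb and body position formed another group with large and even changes. Hox genes are transcription factors that lie in 4 clusters and mark position along the body and the limb, in the order of their numbers. Meis proteins are their cofactors, Tbx4 and Pitx1 are active in the hindlimb and Tbx5 in the forelimb. Of the 16 tested genes of the positional list 5 rose and 4 fell at the adjusted p, and 5 and 2 were called. The shares over all tested genes were 12.3% and 2.86%. With KO FBS replicate 1 left out 5 rose and 5 fell, and with any other library left out 5 rose and 1 to 3 fell. The log2 fold change without KO FBS replicate 1 was -0.59, adjusted p = 0.0438 for Tbx15, the added one.

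Hoxc8 had 4.12, 3.72 and 3.57 FPKM in KO libraries, against 0.532, 0.585 and 0.733 FPKM in WT libraries (log2 fold change 2.65 ± 0.17, adjusted p = 0.000616). Meis2 had 2.82, 1.99 and 1.82 FPKM in KO libraries, against 0.388, 0.373 and 0.241 FPKM in WT libraries (log2 fold change 2.75 ± 0.28, adjusted p = 0.00263). Tbx4 had 0.747, 0.7296 and 0.986 FPKM in KO libraries, against 3.36, 3.56 and 3.104 FPKM in WT libraries (log2 fold change -1.99 ± 0.15, adjusted p = 0.00102). In each of the 3 the KO libraries lay close together, replicate 1 included, and the call was made with any library left out. En1, which sets the ventral side of the limb, rose as evenly (6.04, 6.22 and 5.94 FPKM in KO, against 2.05, 1.78 and 1.52 FPKM in WT, log2 fold change 1.80 ± 0.15, adjusted p = 0.00138). Hoxc6 and Meis1 rose too (log2 fold change 1.36, adjusted p = 0.00625 and 1.42, adjusted p = 0.00118). So did Tbx2 (log2 fold change 1.54, adjusted p = 0.00265). Pitx1 was lower in all KO libraries (4.81, 6.33 and 6.68 FPKM in KO, against 9.64, 10.1 and 10.3 FPKM in WT, log2 fold change -0.72 ± 0.12, adjusted p = 0.012).

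Along the Hoxc cluster the fitted log2 fold change was 0.66 at Hoxc4, 1.36 at Hoxc6, 2.65 at Hoxc8, 0.74 at Hoxc9, -0.08 at Hoxc10 and -1.57 at Hoxc11. Of these Hoxc6, Hoxc8 and Hoxc11 passed the test. Hoxc11 had 0.467, 0.9603 and 0.672 FPKM in KO libraries, against 2.18, 2.598 and 1.63 FPKM in WT libraries, and its call was lost without KO FBS replicate 3 and without any WT library (adjusted p = 0.0987 without WT FBS replicate 2). Hoxd9 fell (log2 fold change -0.90 ± 0.18, adjusted p = 0.0255), and so did both identifiers of Hoxa11, ENSRNOG00000053884 (log2 fold change -1.04, adjusted p = 0.00438) and ENSRNOG00000059870 (log2 fold change -1.11, adjusted p = 0.0118). The gene name stands on 2 lines of the tables, so reads may have been split between them.

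The Hoxb genes were below the FPKM limit and were not tested, but 6 of the 8 had more raw counts in every KO library than in any WT library. Among tested genes 15.5% had all KO values above all WT values by FPKM, and the share among untested genes was not computed. Some of the 6 rest on low counts, such as 12, 4 and 8 in KO libraries for Hoxb5, against 0 in each WT library. Hoxb7 had 41, 34 and 38 counts in KO libraries, against 0 in each WT library, which allows up to 3 counts a library. Hoxb6 had 11, 12 and 22 counts in KO libraries, against 0 in each WT library, and Hoxb3 had 47, 37 and 37, against 6, 7 and 4. Summed over its 8 listed genes, the Hoxb cluster had 221, 203 and 164 counts in KO FBS libraries, against 54, 37 and 23 in WT FBS libraries. The same sum was 273, 297 and 290 in KO SSt against 30, 82 and 32 in WT SSt libraries, and 163, 150 and 204 in KO CMS against 91, 62 and 49 in WT CMS libraries. The Hoxd cluster went the other way, with 335, 310 and 276 counts in KO FBS libraries, against 679, 593 and 606 in WT FBS libraries. So did the Hoxa cluster, with 534, 831 and 745 counts in KO FBS libraries, against 1321, 1545 and 1321 in WT FBS libraries. Tbx5 had 14, 32 and 28 counts in KO FBS libraries, against 8, 0 and 0 in WT FBS libraries. The Hoxb, Hoxd and Hoxa sums and Tbx5 showed no overlap between the genotypes in FBS.

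**Figure D2:**
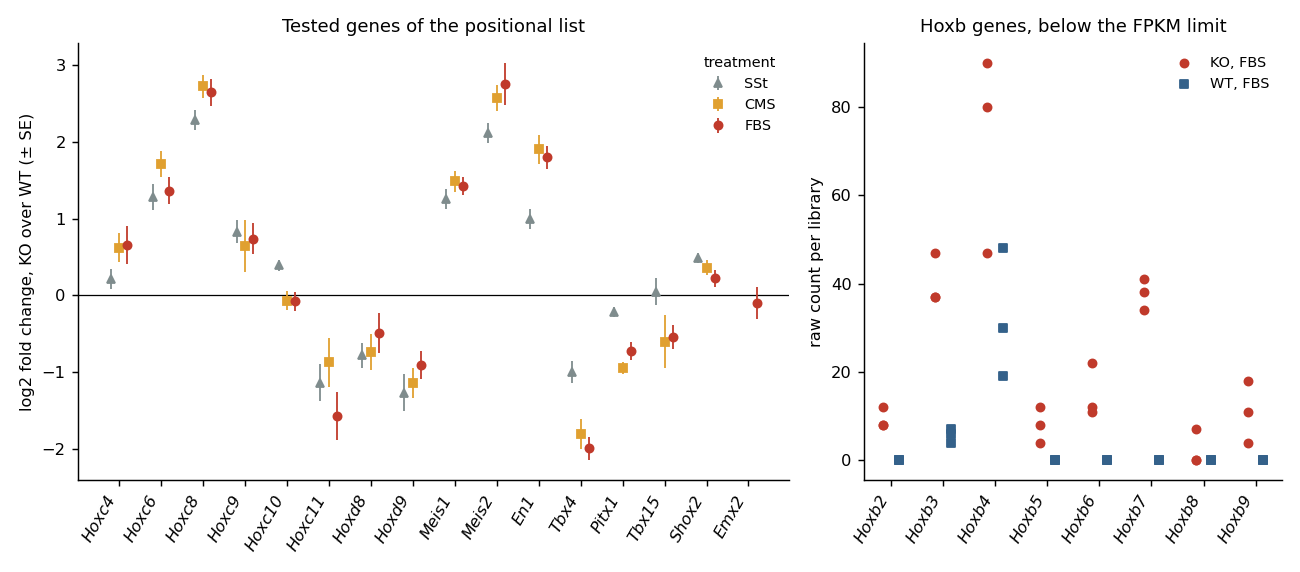
Left: log2 fold change of KO over WT (± SE, from the fit of each treatment's 6 libraries) of the 16 tested genes of the positional list, in SSt, CMS and FBS (Emx2 was tested in FBS alone). Right: raw counts of the Hoxb genes in the 3 KO FBS (red, left) and 3 WT FBS (blue, right) libraries. Hoxc8, Hoxc6, Meis1, Meis2 and En1 are above 0 and Hoxc11, Hoxd9 and Tbx4 below 0 in all 3 treatments, and Hoxb7 has 34 to 41 counts in KO libraries and 0 in WT libraries.

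Matrix genes changed in both directions, where 12.3% of all tested genes passed the adjusted p and 2.86% were called. Of 19 tested collagens 5 rose and 6 fell at the adjusted p (2 and 4 called, median log2 fold change -0.10, and 0.05 without KO FBS replicate 1), and of 47 other matrix genes 17 rose and 8 fell (6 and 5 called, median 0.01). Without KO FBS replicate 1 these counts were 8 and 6 for collagens and 20 and 12 for other matrix genes, and with any other library left out 4 to 5 and 6, and 11 to 17 and 6 to 10. The collagens that fell by 2-fold or more were those of basement membranes, the sheets on which epithelial, endothelial and muscle cells sit. Col18a1 had 20.8, 18.6 and 22.1 FPKM in KO libraries, against 84.5, 79.5 and 80.05 FPKM in WT libraries (log2 fold change -1.96 ± 0.08, adjusted p = 0.00014). Col15a1, its closest relative, had 11.8, 14.5 and 16.6 FPKM in KO libraries, against 45.99, 39.4 and 43.5 FPKM in WT libraries (log2 fold change -1.56 ± 0.12, adjusted p = 0.000946). Col4a1 and Col4a2, the chains of the main network collagen, fell together (log2 fold change -1.11, adjusted p = 0.00534 and -1.19, adjusted p = 0.00394). All 4 calls were made with any library left out. The group did not move as one, since Col4a5, a minor chain of the same network, rose (1.81, 2.15 and 2.73 FPKM in KO, against 0.977, 0.854 and 1.06 FPKM in WT, log2 fold change 1.24 ± 0.16, adjusted p = 0.00642).

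Lama2, the laminin chain of muscle and nerve basement membranes, had 7.17, 7.21 and 9.296 FPKM in KO libraries, against 1.72, 1.504 and 1.41 FPKM in WT libraries (log2 fold change 2.38 ± 0.13, adjusted p = 0.00033). Npnt, an integrin ligand of basement membranes, rose as well (log2 fold change 1.69 ± 0.22, adjusted p = 0.00565). Of the fibre-forming side, Lox, which crosslinks collagen and elastin, had 319.8, 339 and 340.1 FPKM in KO libraries, against 164, 159 and 154 FPKM in WT libraries (log2 fold change 1.10 ± 0.05, adjusted p = 0.00014). Thbs1 had 519.6, 601 and 687 FPKM in KO libraries, against 266, 239 and 252 FPKM in WT libraries (log2 fold change 1.29 ± 0.10, adjusted p = 0.000901). The latent TGF-beta binding protein Ltbp2 and the collagen-binding Fmod also rose (log2 fold change 1.33, adjusted p = 0.00228 and 1.11, adjusted p = 0.00244). The KO libraries lay above the WT libraries in each of these 6 genes, and no library left out ended a call. The main fibrillar collagens were not past the test with all 6 libraries. Col1a1 had 1481, 1865 and 2297 FPKM in KO libraries, against 1540, 1430 and 1403 FPKM in WT libraries, where the groups overlapped through KO replicate 1. Without it Col1a1 passed (log2 fold change 0.53, adjusted p = 0.00567). Col3a1 had a log2 fold change of -0.21, adjusted p = 0.509. Fn1 was likewise not past it (log2 fold change -0.12, adjusted p = 0.45).

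Prg4, the joint lubricant lubricin, had 181, 115 and 111 FPKM in KO libraries, against 538, 515 and 557 FPKM in WT libraries (log2 fold change -1.94 ± 0.21, adjusted p = 0.00318). It fell in every KO library, with replicate 1 nearest to WT, as did the matrix proteins Sned1, Olfml2a and Ccn5 (log2 fold change -2.30, adjusted p = 0.00177, -1.69, adjusted p = 0.00535 and -2.04, adjusted p = 0.00844), where replicate 1 was lowest. Fbln5, which organises elastic fibres, and Timp3, the matrix-bound inhibitor of metalloproteinases, were lower too (log2 fold change -1.08, adjusted p = 0.000753 and -1.43, adjusted p = 0.000409). The cell adhesion genes Cdh2 and Cdh13 went in opposite directions. Cdh2 (N-cadherin) had 37.5, 26.6 and 25.4 FPKM in KO libraries, against 7.28, 7.53 and 6.77 FPKM in WT libraries (log2 fold change 2.09 ± 0.17, adjusted p = 0.00127). Cdh13 had 6.06, 6.78 and 8.54 FPKM in KO libraries, against 22.1, 22.8 and 21.6 FPKM in WT libraries (log2 fold change -1.61 ± 0.11, adjusted p = 0.000788). These 8 calls were made with any library left out. Of 17 tested integrins 3 were higher and 2 lower at the adjusted p, where 12.3% of all tested genes passed. These counts were 4 and 4 without KO FBS replicate 1, and 2 to 3 and 0 to 2 with any other library left out.

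Secreted regulators of BMP and activin signalling were among the genes higher in KO. Of 35 tested BMP, TGF-beta and activin genes 11 rose and 3 fell at the adjusted p, all 8 called genes were higher, and the median log2 fold change was 0.08. Of all tested genes 12.3% passed and 2.86% were called. Without KO FBS replicate 1, 12 rose and 7 fell, and with any other library left out 7 to 11 rose and 2 to 4 fell. Among the called genes were the extracellular antagonists Nog, which binds BMPs, and Fst and Fstl3, which bind activins, and the ligand genes Bmp2, Bmp3, Bmp6 and Inhbb, an activin chain. Inhbb had 40.4, 40.2 and 43.6 FPKM in KO libraries, against 21.8, 19.8 and 18.4 FPKM in WT libraries (log2 fold change 1.08 ± 0.08, adjusted p = 0.000753). The rise was even over the KO libraries, and the call, with those of Nog, Fstl3, Bmp3 and Bmp6 (log2 fold change 2.26, 1.32, 1.07 and 1.07), was made with any library left out. Grem1, another BMP antagonist, rose by less than 2-fold (420.1, 403 and 395 FPKM in KO, against 251, 257 and 247 FPKM in WT, log2 fold change 0.72 ± 0.06, adjusted p = 0.000956).

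Fst had 190.4, 91.9 and 72.8 FPKM in KO libraries, against 25.3, 22.8 and 23.02 FPKM in WT libraries (log2 fold change 2.37 ± 0.37, adjusted p = 0.0112). Bmp2 had 19.2, 7.498 and 5.92 FPKM in KO libraries, against 2.27, 1.85 and 1.45 FPKM in WT libraries (log2 fold change 2.60 ± 0.49, adjusted p = 0.0205). In both genes KO replicate 1 was more than 2-fold above the other KO libraries, which were still above all WT libraries. Without that library the log2 fold changes were 1.81, adjusted p = 5.20e-05, for Fst and 1.86, adjusted p = 0.000775, for Bmp2. With a WT library left out both calls were lost (adjusted p up to 0.065 without WT FBS replicate 2 for Fst and 0.0999 without WT FBS replicate 3 for Bmp2). The BMP target genes Id1 and Id2 did not pass the test (log2 fold change 0.24, adjusted p = 0.469 and -0.02, adjusted p = 0.927), nor did Id3 and Smad6 (log2 fold change -0.39, adjusted p = 0.0698 and -0.81, adjusted p = 0.0528), which were lower without KO FBS replicate 1 (-0.49, adjusted p = 0.00677 and -0.87, adjusted p = 0.0474).

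Of 19 tested Wnt pathway genes 5 rose and 4 fell (median log2 fold change 0.13), where 12.3% of all tested genes passed the adjusted p. These counts were 7 and 5 (median 0.02) without KO FBS replicate 1, and 3 to 5 and 1 to 4 (medians -0.01 to 0.18) with any other library left out. Sfrp2, a secreted Wnt binder, had 96.6, 72.2 and 77.1 FPKM in KO libraries, against 25.6, 22.1 and 21.9 FPKM in WT libraries (log2 fold change 1.86 ± 0.14, adjusted p = 0.000955). Sfrp1 also rose (log2 fold change 1.40 ± 0.14, adjusted p = 0.00262), whereas Frzb, of the same family, fell (4.83, 4.65 and 4.92 FPKM in KO, against 15.2, 12.9 and 12.7 FPKM in WT, log2 fold change -1.47 ± 0.09, adjusted p = 0.000459). Lef1, the transcription factor at the end of the pathway and itself one of its targets, had 2.93, 2.67 and 3.11 FPKM in KO libraries, against 1.24, 1.08 and 1.31 FPKM in WT libraries (log2 fold change 1.29 ± 0.14, adjusted p = 0.00335). The 3 secreted binders and Lef1 kept their calls with any library left out. Wnt4 was low and uneven in WT (1.49, 1.696 and 1.58 FPKM in KO, against 0.517, 0.146 and 0.157 FPKM in WT), and its call (log2 fold change 2.56 ± 0.50, adjusted p = 0.023) was lost without KO FBS replicate 2 and without WT FBS replicate 2 or 3 (adjusted p up to 0.0878 without WT FBS replicate 3).

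Lineage and stromal genes gave no common direction. Of all tested genes 12.3% passed the adjusted p, and 20.6% without KO FBS replicate 1. Among 14 tested osteoblast genes 3 rose and 1 fell, against 7 and 2 without KO FBS replicate 1 and 1 to 2 and 1 to 3 with any other library left out. Dlx3, a homeobox factor of bone and tooth, had 1.63, 1.91 and 1.76 FPKM in KO libraries, against 9.55, 9.34 and 8.87 FPKM in WT libraries (log2 fold change -2.35 ± 0.09, adjusted p = 0.000113), one of the largest and most even falls. Msx1 rose (log2 fold change 1.05 ± 0.14, adjusted p = 0.00661, 0.96 without WT FBS replicate 3), and Runx2, the master regulator of osteoblasts, did not pass (3.84, 5.03 and 5.83 FPKM in KO, against 5.44, 5.02 and 6.14 FPKM in WT, log2 fold change -0.15 ± 0.15, adjusted p = 0.553). The alkaline phosphatase Alpl had 3.39, 6.33 and 7.03 FPKM in KO libraries, against 3.56, 2.81 and 2.95 FPKM in WT libraries, with an overlap between the groups (log2 fold change 0.87 ± 0.26, adjusted p = 0.0776) that came from KO replicate 1. Without that library its log2 fold change was 1.11, adjusted p = 0.0013. Sp7, Bglap and Ibsp, markers of mature osteoblasts, were below the FPKM limit. Of 11 cartilage genes 1 rose and 4 fell, 5 and 4 without KO FBS replicate 1, and 0 and 2 to 4 with any other library left out. Among those that fell was Sox5 (2.28, 2.103 and 1.84 FPKM in KO, against 4.91, 4.91 and 4.72 FPKM in WT, log2 fold change -1.19 ± 0.11, adjusted p = 0.00207).

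Of 18 tested adipocyte genes 1 rose and 4 fell (median log2 fold change -0.22), and 2 rose and 8 fell without KO FBS replicate 1. With any other library left out 0 to 1 rose and 1 to 3 fell. Over all tested genes 12.3% passed, and 20.6% without KO FBS replicate 1. Apoe, the lipid carrier that macrophages and fat cells make in quantity, had 127, 133 and 133 FPKM in KO libraries, against 374, 372 and 358 FPKM in WT libraries (log2 fold change -1.46 ± 0.04, adjusted p = 4.83e-05). Fabp4, the fatty acid carrier of adipocytes and macrophages, had 40.4, 249 and 208 FPKM in KO libraries, against 562, 642 and 554 FPKM in WT libraries. KO replicate 1 was far below the other KO libraries, and the test was not passed (log2 fold change -1.80 ± 0.58, adjusted p = 0.0919), and without that library the log2 fold change was -1.35, adjusted p = 0.000127. Lpl and Pparg, the lipoprotein lipase and the master regulator of fat cells, had the same pattern (log2 fold change -1.36, adjusted p = 0.122, and -1.10, adjusted p = 0.123), with -0.94, adjusted p = 1.45e-05, and -0.75, adjusted p = 0.0295, without it. These named genes lay well below the list median. Of the 18 tested genes 13 had a fitted log2 fold change below 0 and 5 above.

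Among 23 tested MSC and stromal markers 6 rose and 4 fell (median log2 fold change 0.32), 11 and 4 without KO FBS replicate 1, and 3 to 6 and 4 to 5 with any other library left out. Over all tested genes 12.3% passed, and 20.6% without KO FBS replicate 1. Thy1 had 448, 486 and 517 FPKM in KO libraries, against 307, 303 and 284 FPKM in WT libraries (log2 fold change 0.73 ± 0.06, adjusted p = 0.0012). Nt5e rose in the same way (log2 fold change 0.68 ± 0.06, adjusted p = 0.00174). Pdgfrb, the receptor that marks pericytes and marrow stroma, fell by more than 2-fold (30.01, 27.8 and 32.2 FPKM in KO, against 66.4, 64.98 and 66.2 FPKM in WT, log2 fold change -1.10 ± 0.06, adjusted p = 0.000409). Ebf3 and Ebf1, factors of the marrow niche cells, were lower (log2 fold change -1.09, adjusted p = 0.00163 and -0.89, adjusted p = 0.000753). Pdgfra did not pass (log2 fold change 0.15, adjusted p = 0.147). Of the 23 markers 1 was called higher and 2 lower, and the niche factors that follow are not counted among them. Kitlg, which holds blood stem cells in the niche, had 19.2, 21.1 and 20.6 FPKM in KO libraries, against 8.33, 9.43 and 9.35 FPKM in WT libraries (log2 fold change 1.20 ± 0.06, adjusted p = 0.000281). Cxcl12, the chemokine of the same niche, had 121, 101 and 93.97 FPKM in KO libraries, against 46.3, 44.1 and 42.1 FPKM in WT libraries (log2 fold change 1.29 ± 0.11, adjusted p = 0.00163). Both niche factors were at least 2-fold higher in KO with any library left out, as Pdgfrb and Ebf3 were lower.

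Inflammatory genes were higher in KO, most of all in replicate 1. Of 22 tested chemokines and chemokine receptors 12 rose and 1 fell at the adjusted p (10 and 1 called), with a median log2 fold change of 1.24. Among all tested genes 12.3% passed and 2.86% were called. Leaving out KO FBS replicate 1, 14 rose and 1 fell, with a median of 0.76, and with any other library left out 3 to 15 rose, with medians of 1.21 to 1.40. Of 30 interleukin and colony-stimulating factor genes 11 rose and 1 fell (median 0.72, and 0.57 without KO FBS replicate 1). It was 5 to 14 higher and 1 lower with any other library left out. Of 24 NF-kappaB subunits and targets 6 rose and 0 fell (median 0.50), against 15 and 1 without KO FBS replicate 1 and 0 to 10 higher with any other library left out.

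Csf3 (G-CSF), which drives neutrophil production, had 166, 42.5 and 31.6 FPKM in KO libraries, against 6.35, 5.53 and 5.44 FPKM in WT libraries (log2 fold change 3.85 ± 0.69, adjusted p = 0.0175). Cxcl3, a neutrophil chemokine, had 1077, 296 and 192 FPKM in KO libraries, against 90.9, 80.5 and 87.8 FPKM in WT libraries (log2 fold change 2.65 ± 0.65, adjusted p = 0.0466). Ccl6 had 77.99, 19.2 and 11.6 FPKM in KO libraries, against 3.65, 2.07 and 2.01 FPKM in WT libraries (log2 fold change 3.87 ± 0.80, adjusted p = 0.0276). In all 3 replicate 1 was the highest library by a wide margin, yet replicates 2 and 3 were above every WT library, and without replicate 1 the log2 fold changes were 2.69, adjusted p = 3.33e-05, for Csf3, 1.51, adjusted p = 0.000816, for Cxcl3 and 2.59, adjusted p = 0.0014, for Ccl6. With a WT library left out the adjusted p was up to 0.0909 without WT FBS replicate 3 for Csf3, 0.161 without WT FBS replicate 2 for Cxcl3 and 0.125 without WT FBS replicate 3 for Ccl6, above the threshold. The acute phase genes Lcn2, Hp and C3 and the prostaglandin E synthase Ptges had the same shape (log2 fold change 2.50, 2.90, 2.14 and 2.43, with 1.61, 2.12, 1.61 and 1.74 without replicate 1), and lost their calls with any WT library left out. Nos2, the inducible nitric oxide synthase, had 239, 22.01 and 11.8 FPKM in KO libraries, against 4.07, 4.26 and 4.96 FPKM in WT libraries. The KO libraries were spread widely, and the test was not passed (log2 fold change 4.42 ± 1.20, adjusted p = 0.0602), while without replicate 1 it was (log2 fold change 1.94, adjusted p = 0.00129).

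Another set of inflammatory genes spread less among the 3 KO libraries and was called with any library left out. Ptx3, a soluble pattern recognition protein, had 77.6, 84.8 and 75.1 FPKM in KO libraries, against 28.1, 26.6 and 24.6 FPKM in WT libraries (log2 fold change 1.61 ± 0.07, adjusted p = 0.00017). Il1r2, the decoy receptor for interleukin-1, had 12.9, 14.3 and 11.9 FPKM in KO libraries, against 3.06, 2.43 and 2.903 FPKM in WT libraries (log2 fold change 2.25 ± 0.13, adjusted p = 0.000393). Pla2g2a, a secreted phospholipase, had 652, 425 and 422 FPKM in KO libraries, against 139.9, 112 and 125 FPKM in WT libraries (log2 fold change 2.03 ± 0.21, adjusted p = 0.00269). Cxcl14 and Ccl9 rose too (log2 fold change 1.72, adjusted p = 0.0042 and 1.59, adjusted p = 0.00318), and Arg1, the enzyme that splits arginine, was at 24.3, 13.8 and 13.7 FPKM in KO, against 3.17, 2.58 and 2.34 FPKM in WT (log2 fold change 2.72 ± 0.29, adjusted p = 0.00288). Of the receptors, Csf2rb, the shared chain for GM-CSF, rose (log2 fold change 1.29 ± 0.18, adjusted p = 0.0069), and Lifr, for leukaemia inhibitory factor, fell (log2 fold change -1.21 ± 0.09, adjusted p = 0.000889). Ccl2, a chemokine for monocytes, did not pass (2035, 1364 and 1108 FPKM in KO, against 904, 837 and 903 FPKM in WT, log2 fold change 0.81 ± 0.22, adjusted p = 0.0645), nor did Il6 (log2 fold change 1.71, adjusted p = 0.0641). Both passed without KO FBS replicate 1 (log2 fold change 0.50, adjusted p = 0.00601 for Ccl2 and 0.93, adjusted p = 0.00261 for Il6). Of 24 interferon-stimulated genes 2 rose and 1 fell, 2 and 2 without KO FBS replicate 1. Of 25 genes of antigen presentation none passed by edgeR or DESeq2 with all 6 libraries (4 higher and 1 lower at an unadjusted p under 0.05), whereas 6 rose without KO FBS replicate 1.

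**Figure D3:**
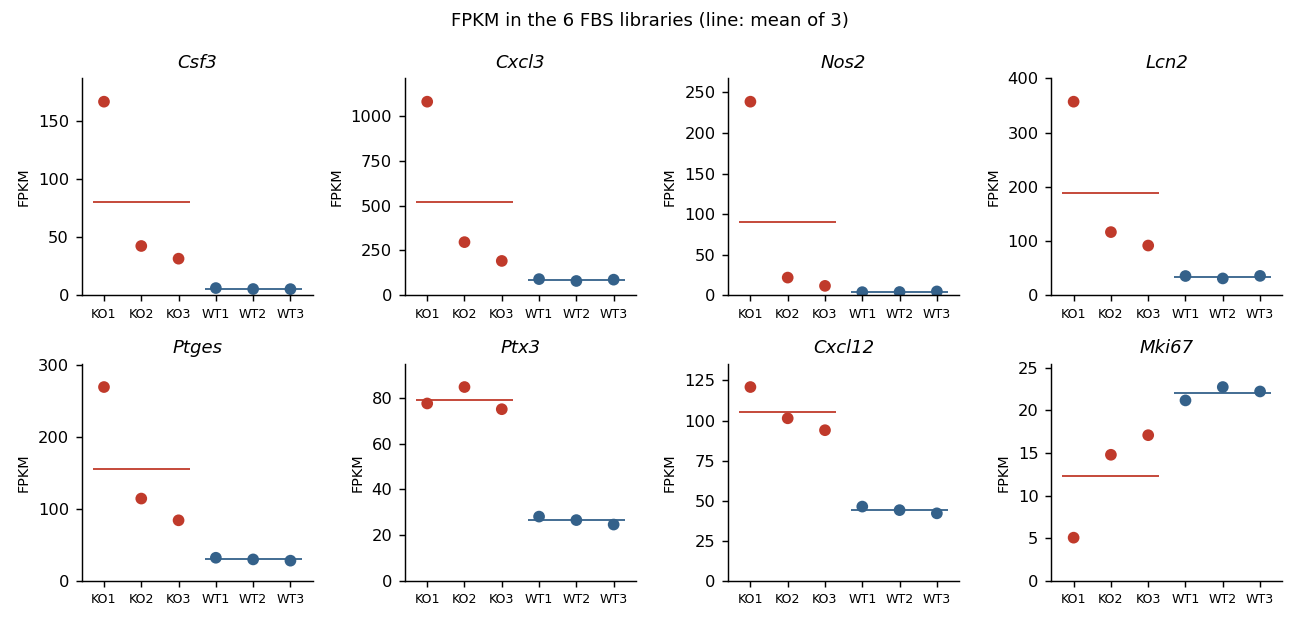
FPKM of 8 genes in each of the 6 FBS libraries, with KO1 to KO3 in red and WT1 to WT3 in blue and lines at the means of 3. Csf3, Cxcl3, Nos2, Lcn2 and Ptges are highest in KO1 and Mki67 is lowest there, whereas Ptx3 and Cxcl12 differ between the genotypes by more than they do among the KO libraries.

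Macrophage markers, which the cultures held in quantity, went with the genotype to a lesser degree. Of 31 tested markers 1 rose and 5 fell, with a median log2 fold change of -0.12 (3 rose and 12 fell, median -0.11, without KO FBS replicate 1, and 0 to 2 and 1 to 5 with any other library left out). Of all tested genes 12.3% passed, and 20.6% without KO FBS replicate 1. The markers' part was thus set against these shares. The summed level of the 31 markers was 11200, 12430 and 11720 FPKM in KO libraries, against 14680, 15590 and 15520 FPKM in WT libraries. Lyz2 and Gpnmb made up much of it, and both fell (log2 fold change -0.60, adjusted p = 0.0339 and -0.53, adjusted p = 0.00746). Cd4, which rat macrophages carry, had 56.6, 47.3 and 51.1 FPKM in KO libraries, against 87.5, 80.2 and 90.1 FPKM in WT libraries (log2 fold change -0.70 ± 0.09, adjusted p = 0.00643). Cd68 and the pan-leukocyte Ptprc did not pass (log2 fold change -0.11, adjusted p = 0.335 and -0.37, adjusted p = 0.0932), but were lower without KO FBS replicate 1 (-0.19, adjusted p = 0.0139 and -0.43, adjusted p = 0.0448). Fcgr2b, an inhibitory Fc receptor, rose (452, 339 and 279 FPKM in KO, against 186, 162 and 182 FPKM in WT, log2 fold change 1.05 ± 0.19, adjusted p = 0.0163), by 0.82 without KO FBS replicate 1, and its call was also lost with any WT library left out (adjusted p up to 0.0833 without WT FBS replicate 2). Tmem176b and Tmem176a, neighbouring membrane protein genes that are known from dendritic cells and macrophages in mice, fell in step (7.71, 9.13 and 9.26 FPKM in KO, against 53.1, 57.5 and 56.5 FPKM in WT and log2 fold change -2.65 ± 0.07, adjusted p = 4.66e-05 for Tmem176b, log2 fold change -2.10, adjusted p = 0.000616 for Tmem176a). The part of the macrophage share in the lower Apoe, Fabp4, Lyz2 and Tmem176b, or in the higher chemokines, was not tested.

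For the pathway that the study placed under miR-337, a list of 32 components held genes past the test at about the share of all genes. Irs1 had 1.69, 1.65 and 2.11 FPKM in KO libraries, against 2.27, 2.19 and 2.27 FPKM in WT libraries, lower in all KO libraries than in any WT library and not past the test (log2 fold change -0.27 ± 0.11, adjusted p = 0.172). Akt1 had 90.3, 91.9 and 92.9 FPKM in KO libraries, against 91.7, 95.1 and 94.2 FPKM in WT libraries (log2 fold change 0.00 ± 0.04, adjusted p = 0.982). Mtor had a log2 fold change of -0.08, adjusted p = 0.447. Of the 32 tested components of insulin, PI3K, Akt and mTOR signalling 1 rose and 2 fell at the adjusted p, none was called, and the median log2 fold change was -0.06. Over all tested genes 12.3% passed and 2.86% were called. Ddit4, a stress-induced inhibitor of mTOR complex 1, rose (28.0, 22.0 and 19.2 FPKM in KO, against 12.2, 12.4 and 11.9 FPKM in WT, log2 fold change 0.96 ± 0.15, adjusted p = 0.0107). Pdpk1, the kinase that activates Akt, and Rictor, of mTOR complex 2, fell slightly (log2 fold change -0.37, adjusted p = 0.0278 and -0.37, adjusted p = 0.0177). With KO FBS replicate 1 left out 2 rose and 6 fell, and with any other library left out 0 to 2 rose and 0 to 2 fell. These are messenger levels, and phosphorylation was not measured in them. The list is not the set of PI3K-Akt genes that the study plotted, and the study also measured the proteins, so the counts do not cover its whole pathway. The 10 tested genes that the study names, Piezo1, Yap1 and Tead1 among them, did not pass by edgeR, with a median log2 fold change of -0.04. At an unadjusted p under 0.05, 1 was higher and 1 lower, as by DESeq2 at its adjusted p, and without KO FBS replicate 1, 1 rose and 2 fell by edgeR.

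Genes of the cell cycle were not called, and the size of their difference depended on 1 library. Mki67, a marker of cycling cells, had 5.06, 14.8 and 17.1 FPKM in KO libraries, against 21.2, 22.7 and 22.2 FPKM in WT libraries (log2 fold change -0.82 ± 0.39, adjusted p = 0.221). The KO values were all below the WT values, with replicate 1 lowest by a wide margin, and without it Mki67 had a log2 fold change of -0.46, adjusted p = 0.00356. Of 37 tested cyclin and mitosis genes 0 rose and 1 fell (Aurka, log2 fold change -0.52, adjusted p = 0.014), and the median was -0.53, against -0.23 without KO FBS replicate 1, when 13 fell. With another library left out the median was -0.75 to -0.55 and 0 or 1 fell. At an unadjusted p under 0.05, 6 of the 37 were lower and 0 higher with all 6 libraries, and DESeq2 had 5 lower past the adjusted p. Of 34 DNA replication genes none passed by edgeR (median -0.29, and -0.07 with 3 lower without KO FBS replicate 1), 3 were lower at an unadjusted p under 0.05, and DESeq2 had 1 lower past the adjusted p. Of 21 CDK inhibitors and p53 targets 6 rose and 0 fell, led by Gadd45b and Cdkn1a (log2 fold change 0.90, adjusted p = 0.00361 and 0.62, adjusted p = 0.00673), and 8 rose and 3 fell without KO FBS replicate 1. With any other library left out 3 to 5 rose and 0 fell.

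Growth factor genes changed as single genes. Nrg1 (neuregulin), a ligand of Erbb3 and Erbb4, had 15.3, 10.7 and 8.76 FPKM in KO libraries, against 2.42, 1.77 and 1.99 FPKM in WT libraries (log2 fold change 2.53 ± 0.24, adjusted p = 0.00228). Ptn (pleiotrophin), a heparin-binding growth factor, had 1.82, 2.19 and 2.41 FPKM in KO libraries, against 7.65, 7.97 and 7.799 FPKM in WT libraries (log2 fold change -1.83 ± 0.13, adjusted p = 0.000793). Both calls were made with any library left out, and the groups were well apart. Of the 25 tested ligands 5 rose and 5 fell (median log2 fold change 0.08), where 12.3% of all tested genes passed. Leaving out KO FBS replicate 1 gave 10 and 6 (median -0.07), leaving out any other KO or WT library 2 to 8 and 1 to 4. Hgf and Angptl4 rose with the highest values in KO replicate 1 (14.97, 7.13 and 5.59 FPKM in KO, against 3.23, 3.41 and 2.88 FPKM in WT for Hgf, log2 fold change 1.58 ± 0.37, adjusted p = 0.0414, and 1.67, adjusted p = 0.0223 for Angptl4). Both lost their calls with any WT library left out, Hgf also without KO FBS replicate 2 (adjusted p up to 0.152 without WT FBS replicate 3 for Hgf and 0.103 without WT FBS replicate 3 for Angptl4). Gas6, the ligand of the receptor Axl, had 42.6, 67.5 and 76.3 FPKM in KO libraries, against 137, 138 and 132 FPKM in WT libraries (log2 fold change -1.10 ± 0.19, adjusted p = 0.0143). Its log2 fold change without KO FBS replicate 1 was -0.90, adjusted p = 8.65e-05, and the call was lost there and with any WT library left out. Igfbp4, which withholds insulin-like growth factors, fell (24.5, 42.97 and 54.4 FPKM in KO, against 121, 117 and 110.0 FPKM in WT, log2 fold change -1.49 ± 0.25, adjusted p = 0.0144), and its call was lost without KO FBS replicate 2 or any WT library (adjusted p up to 0.0641 without WT FBS replicate 2). Stc2, a blocker of the protease that cleaves Igfbp4, rose in every KO library (log2 fold change 1.32 ± 0.09, adjusted p = 0.000774).

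Glycolysis and hypoxia genes that passed the test were all higher in KO, and most sterol and fatty acid synthesis genes that passed were lower. Of 33 tested glycolysis and hypoxia genes 8 rose and 0 fell (median log2 fold change 0.56), and 21 rose without KO FBS replicate 1, when the median was 0.30. With any other library left out 1 to 12 rose. Among all tested genes 12.3% passed the adjusted p, and 20.6% without KO FBS replicate 1. Bnip3 and Hif1a were among the 8 (log2 fold change 0.95, adjusted p = 0.0488 and 0.90, adjusted p = 0.00786), and P4ha2, a collagen prolyl hydroxylase, was the called one (155, 121 and 119.8 FPKM in KO, against 65.8, 63.1 and 62.2 FPKM in WT, log2 fold change 1.08 ± 0.12, adjusted p = 0.00366, and 0.93 without KO FBS replicate 1). Of 29 sterol synthesis genes 1 rose and 8 fell, and of 19 fatty acid synthesis genes 0 rose and 5 fell, none of the falls reaching 2-fold. The sterol genes included Sqle (log2 fold change -0.24, adjusted p = 0.0341) and the fatty acid genes Fasn and Acaca (log2 fold change -0.33, adjusted p = 0.0344 and -0.28, adjusted p = 0.0477). With KO FBS replicate 1 left out 15 sterol and 6 fatty acid genes fell and 2 of each rose. With any other library left out 2 to 6 sterol and 0 to 5 fatty acid genes fell.

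**Figure D4:**
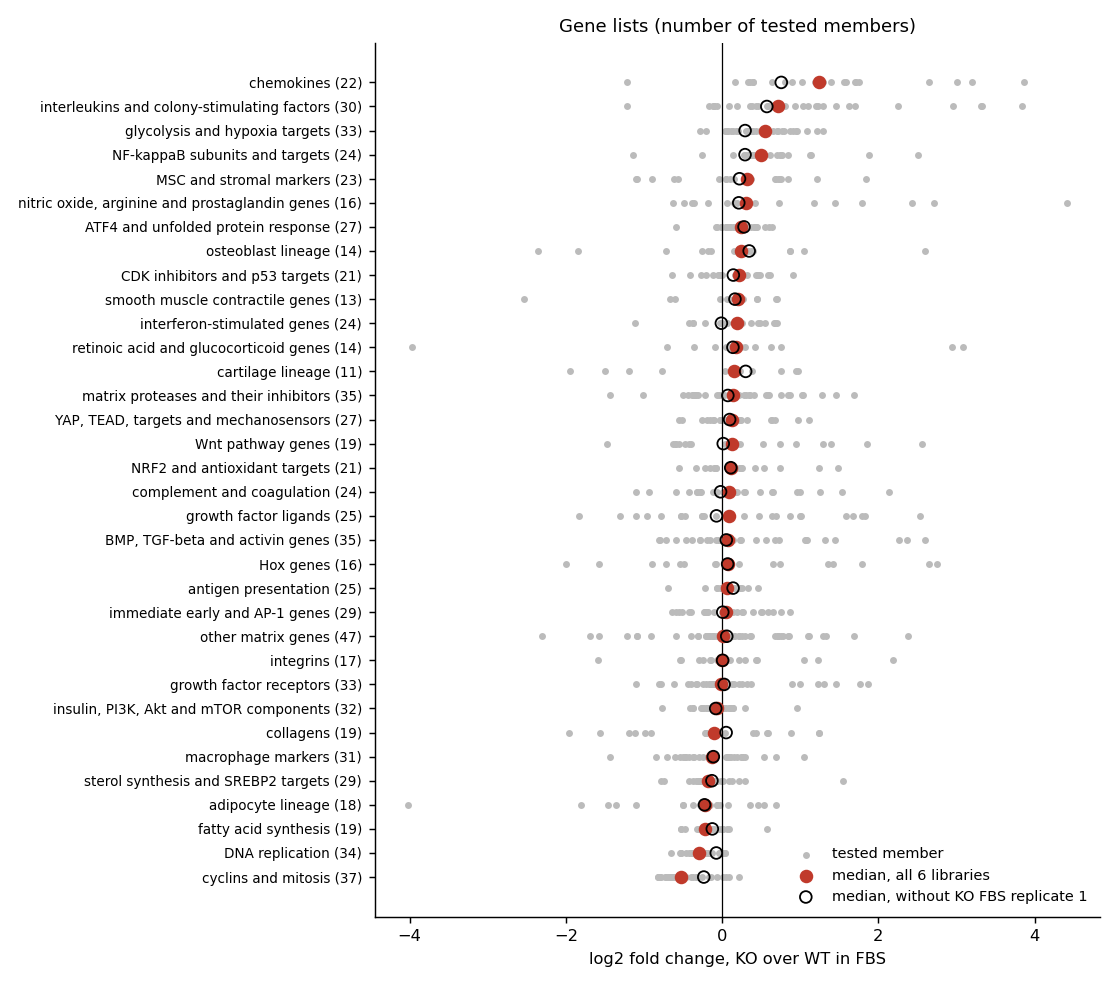
Log2 fold change of KO over WT in FBS for the tested members (grey) of each gene list with 10 or more of them (the row named Hox genes is the positional list), with the list median over all 6 libraries (red) and without KO FBS replicate 1 (open circle). Chemokines lie farthest to the right (median 1.24, open circle 0.76) and cyclins and mitosis farthest to the left (-0.53, open circle -0.23), and most other medians are near 0.

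Among single genes outside these lists, Fam111a, a nuclear protease that acts at stalled replication forks, had 43.1, 63.1 and 60.9 FPKM in KO libraries, against 7.17, 7.46 and 8.35 FPKM in WT libraries (log2 fold change 2.89 ± 0.14, adjusted p = 0.000244). Adgrd1, an adhesion G protein-coupled receptor, had 18.7, 21.9 and 23.3 FPKM in KO libraries, against 3.32, 3.02 and 3.64 FPKM in WT libraries (log2 fold change 2.71 ± 0.10, adjusted p = 0.000115). Pcp4, a calmodulin-binding peptide, had 80.3, 39.3 and 29.4 FPKM in KO libraries, against 5.37, 5.44 and 6.299 FPKM in WT libraries (log2 fold change 3.16 ± 0.40, adjusted p = 0.00565). Fam111a and Adgrd1 were even over the KO libraries, and Pcp4 was highest in replicate 1, and all 3 calls were made with any library left out. Ift27, a subunit of the intraflagellar transport that builds cilia, had 2.32, 3.44 and 2.68 FPKM in KO libraries, against 12.4, 11.3 and 10.2 FPKM in WT libraries (log2 fold change -1.97 ± 0.17, adjusted p = 0.00142). Des (desmin), the intermediate filament of muscle, had 0.6996, 0.804 and 0.893 FPKM in KO libraries, against 5.82, 4.31 and 4.14 FPKM in WT libraries (log2 fold change -2.54 ± 0.19, adjusted p = 0.000889). Both fell evenly, whereas other contractile genes such as Tagln and Cald1 rose by less than 2-fold (log2 fold change 0.45, adjusted p = 0.0249 and 0.45, adjusted p = 0.00175).

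The same test in the libraries of the other treatments, which the FBS comparison did not use, called 878 of 12521 tested genes in SSt (7.01%) and 943 of 12496 in CMS (7.55%). Of the 212 genes higher in KO in FBS, 160 were also called higher in CMS (75.5% of the FBS list and 37.9% of the 422 called higher there, 3.38% of its tested genes) and 56 in SSt (26.4%, and 19.2% of the 291 there, 2.32%). None was called lower in CMS, and 36 were called lower in SSt. Of the 149 lower genes, 95 were called lower in CMS (63.8%, and 18.2% of the 521 there, 4.17%) and 52 in SSt (34.9%, and 8.86% of the 587 there, 4.69%), with 0 and 3 called the other way. Not all of these genes were tested in the other treatments. Of the 212 higher genes 197 were tested in CMS and 188 in SSt, and of the 149 lower genes 139 and 104. The percentages of the FBS lists count untested genes as not called. In all 3 treatments 44 genes were called higher and 35 lower in KO.

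Aldh1a2 had a log2 fold change of -4.02 in SSt and -3.71 in CMS. Crabp1 had 2.81 in SSt and 2.67 in CMS, and Tmem176b -2.31 in SSt and -3.14 in CMS. Hoxc8 had 2.28 in SSt and 2.72 in CMS, Meis2 2.12 in SSt and 2.57 in CMS, and Lama2 2.07 in SSt and 2.27 in CMS. Il1r2, Sfrp2, Fmod, Gpx3 and Kitlg were also called higher, and Apoe, Prg4, Timp3, Col18a1, Cdh13, Sox5, Dlx3, Ift27 and Des lower, in all 3 treatments. Some inflammatory genes changed sign between treatments. Csf3 had -4.09 in SSt and 4.58 in CMS, Cxcl3 -1.70 in SSt and 3.02 in CMS, Arg1 -2.33 in SSt and 2.91 in CMS and Pla2g2a -2.74 in SSt and 2.84 in CMS, all called, with KO above WT in CMS as in FBS and below it in SSt. Others did not, since Ccl17 and Cxcl12 were also higher in SSt (log2 fold change 1.75, adjusted p = 0.00498 and 0.81, adjusted p = 9.41e-06), and Ptx3 and Cxcl14 did not pass there (0.13, adjusted p = 0.3 and 0.30, adjusted p = 0.106). The chemokine list had a median of -1.14 in SSt and 1.48 in CMS, and the cyclin and mitosis list of 0.80 in SSt and -1.63 in CMS.

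The difference between the genotype effects was tested in 1 fit over all 18 libraries. Of 13317 genes 1195 (8.97%) differed between FBS and SSt by the limits used for calls, and 199 (1.49%) between FBS and CMS. Among the 361 genes called in FBS these were 114 of the 212 higher and 52 of the 149 lower against SSt, and 5 and 4 against CMS. Without KO FBS replicate 1 the counts over all genes were 939 against SSt and 486 against CMS.

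**Figure D5:**
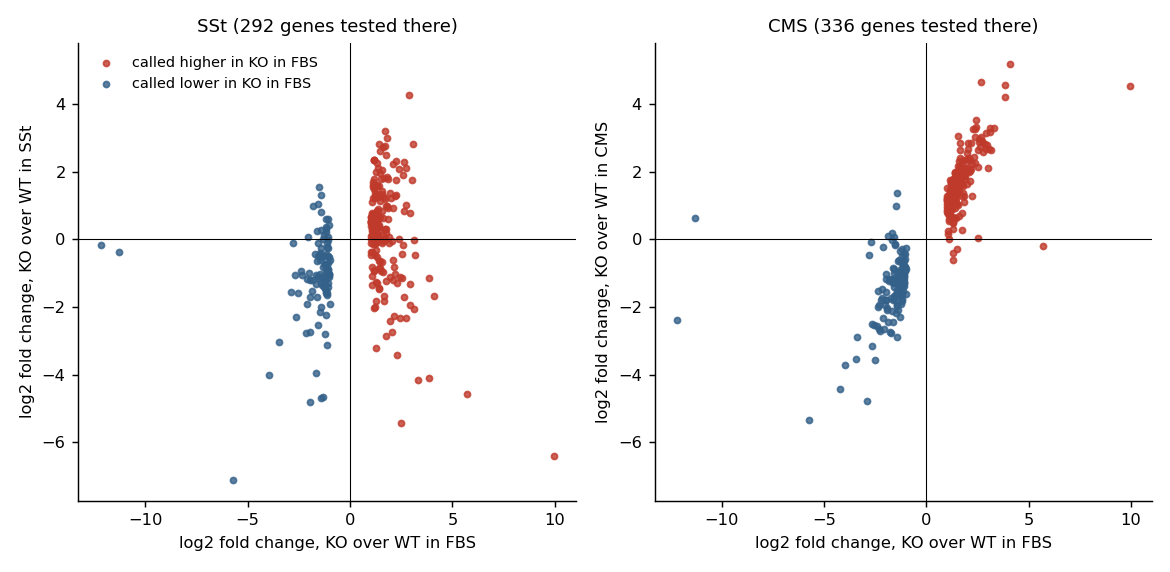
Log2 fold change of KO over WT in SSt (left, 292 genes) and in CMS (right, 336 genes) against that in FBS for the genes called in FBS and tested there, red for those higher and blue for those lower in KO in FBS. Genes far out on the horizontal axis have a group at or near 0 counts. In CMS nearly all points keep the sign they have in FBS, whereas in SSt many red points lie below 0.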

How the data were processed

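RNA-seq of cultured bone marrow MSCs was read from 2 tables, 1 for each genotype, in which the authors deposited raw counts per gene and FPKM values (counts corrected for gene length and sequencing depth) for every library. In the submitters' processing notes Bowtie 0.12.2 and mm10, a mouse build, are listed, whereas the gene identifiers are those of rat Ensembl. What each was used for, the counting program and the use of strand were not given in the sources used here, so no coordinates of these files are printed. The authors wrote an FPKM of 0.0001 for genes with 0 counts, and it was read as 0.

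The tables were joined by identifier and scaled together from the raw counts. Genes reaching 1 FPKM in 3 or more of the 6 FBS libraries were tested with edgeR 4.0.16 (R 4.3.3) by its quasi-likelihood F-test, after TMM scaling over those 6 libraries (factors 0.9614 to 1.0128), two-sided, with Benjamini-Hochberg adjustment over all 12643. Standard errors are the log2 fold change divided by the square root of F. The tested genes held 99.72% to 99.75% of counts. The SSt and CMS comparisons were made in the same way on their own libraries, and differences between treatments by interaction contrasts over all 18. Alternatives used limma 3.58.1, DESeq2 1.42.0, other scalings, filters and the replicate block. The method was tested on simulated data for the FBS comparison over 12643 genes, where 29.9% of 67 genes changed 1.5-fold, 83.6% of 67 changed 2-fold and 93.9% of 66 changed 4-fold passed the adjusted p. Of these 0, 26 and 62 were called, as were 4 of 12443 unchanged genes (8 past the adjusted p). The simulation drew genes independently and set no library apart, unlike KO FBS replicate 1 in the data, so these rates may not hold for the comparison itself. Tables and plots were made with Python 3.11.15, pandas 2.3.3, numpy 2.4.6 and matplotlib 3.10.9.

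Named were the 12 genes with the largest rise and the 12 with the largest fall among those called with and without KO FBS replicate 1, without overlap and with a mean of at least 5 FPKM, then in each gene list up to 4 called genes and the 2 most abundant, and the genes the study names. A few genes that this rule names are not reported here. Further genes were named after their values were seen. The members and lists were chosen with earlier results of these data known. In all, 1556 gene names stand on more than 1 line, and such genes are given by identifier or left out. The methods give 16 h of treatment where the labels give 24 h.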

Additional observations from a re-analysis of the deposited data

Results flagged for a closer look

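The genotype effect in FBS differed from that in SSt, by the interaction test over 18 libraries, in 1195 genes, and from that in CMS in 199. Of the 24 genes with the largest changes in FBS, 15 differed from SSt and none from CMS. The effect in FBS minus that in SSt was positive for, among others, Csf3 (7.93 on the log2 scale), Arg1 (5.03), Ccl6 (5.0), Hp (4.84), Cxcl3 (4.34), Pcp4 (3.62), Plac8 (3.12), LOC299282 (2.82) and Adgrd1 (1.7). It was negative for Aoc3 (-2.36), Ccn5 (-2.12), Fam111a (-1.39), Dlx3 (-1.32) and Olfml2a (-1.3). Groups of 3 libraries are too small for a test of single outlying libraries.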

How the results depend on the processing

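The 212 genes called higher and 149 called lower in KO became 129 to 247 and 78 to 174 with 1 library left out, and the 1551 past the adjusted p became 481 (without WT FBS replicate 3) to 2604 (without KO FBS replicate 1). A minimum of 5 FPKM gave 123 higher and 69 lower, limma on log2(FPKM + 1) gave 123 and 99, and a fold limit of 1.5 gave 385 and 328. DESeq2 had 2588 genes past the adjusted p, and a fit over all 18 libraries 3349. Libraries with the same replicate number had correlations of deviations of -0.054, 0.079 and -0.069, against -0.053 to 0.117 for unlike numbers. In groups of 3 this cannot settle whether they were paired. With the replicate block 832 genes passed, 168 called higher and 119 lower. The genotype effects in FBS and CMS differed in 486 genes without KO FBS replicate 1, against 199 with it. Other scalings left these counts within 1.5 times. Of the 87 called genes chosen by the naming rule, all 87 were called by DESeq2 and with every other scaling. Of these, 77 were called without KO FBS replicate 1, and 57, 55 and 54 without WT FBS replicate 1, 2 and 3. The largest rises and falls among them were chosen from genes called with and without KO FBS replicate 1. The count of 77 is therefore partly set by that choice. None of the 87 reversed in the alternatives run, whereas some small list medians changed sign, such as those of collagens and growth factor ligands without KO FBS replicate 1 and of Wnt genes without KO FBS replicate 3. The cause of these shifts was not tested.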

Other observations

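A few genes were near absent or several-fold lower in whole libraries. In FBS these were the KO libraries, but in SSt or CMS the patterns did not follow the groups. Tmem45al had 0, 0 and 0 counts in KO FBS libraries, against 886, 664 and 238 in WT FBS libraries, but 0, 720 and 979 in KO SSt, against 5, 334 and 1689 in WT SSt libraries. LOC108348055 had 0, 0 and 0 counts in KO FBS libraries, against 258, 307 and 392 in WT FBS libraries, but 148, 219 and 0 in KO CMS, against 256, 0 and 0 in WT CMS libraries. Fam210a had 442, 399 and 363 counts in KO FBS libraries, against 2727, 2807 and 2729 in WT FBS libraries. In SSt it had 541, 3171 and 565 counts in KO, against 2791, 3185 and 3263 in WT libraries, and in CMS 2609, 2709 and 3126 in KO, against 3221, 2928 and 2989 in WT libraries.

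Asb15, a gene of the SOCS-box family, was low in every KO library of the series, with 73, 37 and 75 counts in KO FBS libraries, against 651, 706 and 838 in WT FBS libraries. It had 97, 41 and 110 counts in KO SSt, against 586, 673 and 870 in WT SSt libraries, and 63, 53 and 51 in KO CMS, against 652, 706 and 660 in WT CMS libraries.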
